A study of Danio rerio with 4 samples.

Results

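The small RNA library of zebrafish larvae exposed to 500 μg/L BDE47 was set against the library of the DMSO vehicle control, which makes 2 of the 4 libraries of the series. BDE47 (2,2′,4,4′-tetrabromodiphenyl ether) is a brominated flame retardant that dissolves in fat and accumulates in living tissue. All larvae were wild-type Tuebingen zebrafish taken whole at 6 days post fertilization (dpf), and RNA was extracted from pools of 40 to 50 larvae. The vehicle larvae received 0.1% DMSO, the exposed larvae received 500 μg/L BDE47 in 0.1% DMSO from the gastrula stage on, and the other two libraries came from larvae given 5 μg/L BDE47 in 0.1% DMSO and from a blank control whose DMSO content the labels do not state. Every zebrafish miRNA in the deposited table whose normalized count averaged 10 or more over the 4 libraries was taken, which gave 234 of the 245 listed miRNAs. Each condition had 1 library, so no difference below has a replicate check by sequencing, and the comparison is between these pools of larvae. The study also assayed miR-735, miR-301b, miR-142b-5p and miR-459-5p by RT-PCR on replicate samples. It described those results as generally matching the sequencing. The RT-PCR values were not used here.

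A miRNA is cut from a hairpin precursor that has a 5p and a 3p arm, and the mature strand guides the silencing of mRNAs that match its seed, the bases near its start. Many miRNAs are made mainly in 1 tissue, so a library of whole larvae mixes the signals of muscle, gut, blood, brain and skin. Paralogs such as miR-301a, miR-301b and miR-301c, or neighbours cut from 1 transcript, may be measured as separate entries. In such a mixture, fewer cells of a type and less RNA per cell cannot be told apart. The defining miRNAs of the main larval tissues were all present in the vehicle library, with 29747 normalized counts for the muscle miR-133a-3p, 4434 for the liver miR-122, 35649 for the neural miR-9-5p, 1451 for the red cell miR-451 and 88711 for the skin miR-205.

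The listed miRNAs held 10150872 reads in the vehicle library and 9295259 in the 500 μg/L library. At this depth the counting error of an abundant miRNA is small. The bracketed ranges below are exact Clopper-Pearson 95% intervals of the log2 ratio that cover the counting error of reads only, and not differences between pools. They may be too narrow even for that, because PCR copies are not independent molecules. Both libraries of the comparison stood somewhat apart. Of the 234 miRNAs the vehicle library was the highest of the 4 for 84 and the lowest for 76. The 500 μg/L library was the highest for 74 and the lowest for 76. The blank control was the highest for 33 and the lowest for 40, and the 5 μg/L library for 43 and 42. For that reason the miRNAs described in full are given with their values in all 4 libraries, and those beyond 2-fold also with their log2 ratio to the blank control. The part of the vehicle library in the results was not tested.

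At 500 μg/L BDE47, 18 miRNAs lay beyond 2-fold below their vehicle value and 3 lay beyond 2-fold above it. Of these 21, 2 were also beyond 2-fold against the blank control, namely miR-459-5p and miR-735. All 21 come from 18 families by the number in their names. On the lower side are the blood cell miR-142, the red blood cell miR-144, the myelin-related miR-219, the neuronal miR-153 and the pancreatic miR-216, among others. On the higher side are the neuronal miR-129 and miR-132, besides miR-735. The 21 miRNAs are 8.97% of the 234, with 7.69% lower and 1.28% higher, and these shares are the background for the tissue lists and families below. The log2 ratios (after adding 1 to each value) had a median of 0.02 and quartiles of -0.38 and 0.23, with 113 below 0 and 121 above. The lower tail was longer, since the 5th percentile lay at -1.16 and the 95th at 0.57. Just inside the threshold were miR-34b at -1.02 and miR-132-3p at 1.06 (1.055 before rounding), and just outside were miR-101b at -0.98 and miR-145 at 0.97.

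**Figure D1:**
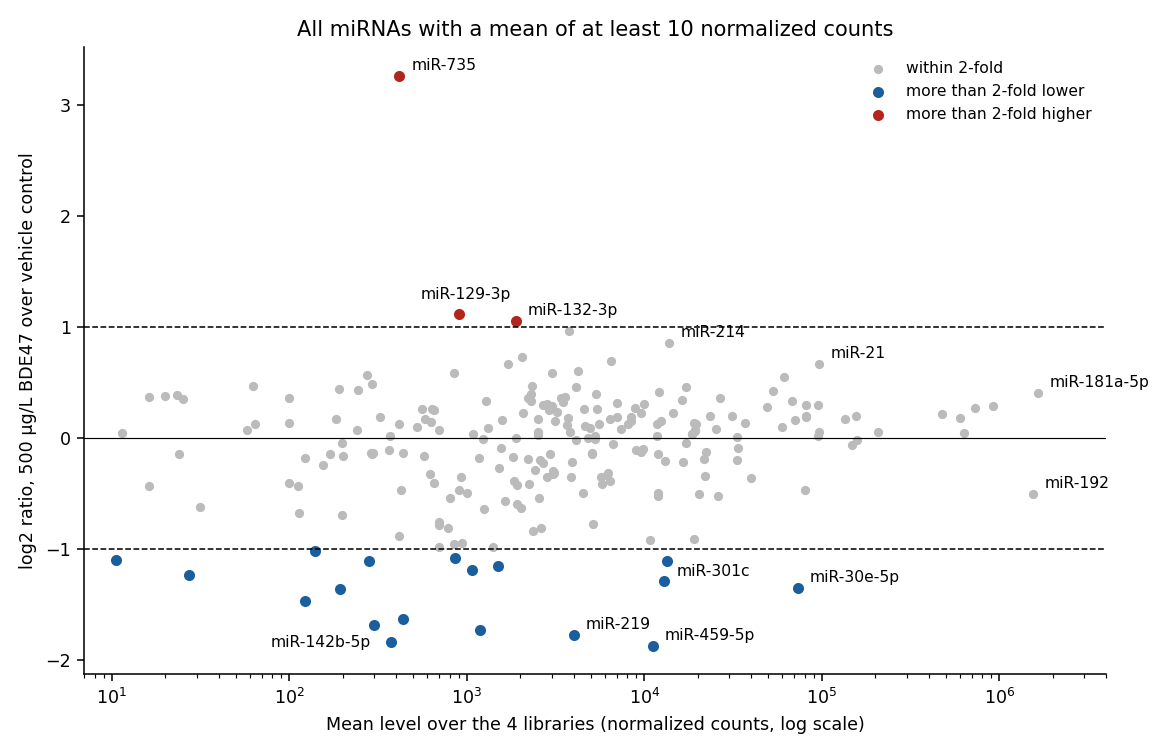
Each point is 1 of the 234 miRNAs, with its mean level over the 4 libraries in normalized counts (log axis) against its log2 ratio of 500 μg/L BDE47 to the vehicle control; dashed lines mark 2-fold. The 18 lower miRNAs (blue) are spread over low and high levels, and miR-735 stands alone at 3.26.

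The miRNAs beyond 2-fold were mostly of low or middle abundance. Split by mean level into 4 groups of 58 or 59, the group of lowest level, up to 699 normalized counts, held 9 lower and 1 higher. The next group held 4 lower and 2 higher, the one after it 2 lower, and the group of highest level 3 lower. The median size of the log2 ratio, whatever its sign, was 0.35 in the lowest group and 0.20 in the highest. The 21 miRNAs together took 2.07% of the listed reads in the vehicle library and 0.806% at 500 μg/L.

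The miR-142 entries of the white blood cell list were among the lowest. miR-142 is made in blood cells of all lineages and is used as a marker of them in zebrafish. Its entry miR-142b-5p had 336, 671, 305 and 188 normalized counts in the blank, vehicle, 5 μg/L and 500 μg/L libraries, a log2 ratio of -1.83 (-2.08 to -1.60). miR-142a-5p, the most abundant entry, had 1051, 1612, 922 and 709 in the same order, a log2 ratio of -1.18 (-1.31 to -1.05). miR-142a-3p had 115, 194, 111 and 69.7, a log2 ratio of -1.47 (-1.90 to -1.08). All 3 were highest in the vehicle library and lowest at 500 μg/L, with the blank control and 5 μg/L close together between them. Their log2 ratios to the blank control were -0.83 for miR-142b-5p, -0.57 for miR-142a-5p and -0.71 for miR-142a-3p. The other white cell miRNAs pointed the opposite way. miR-150, of lymphocytes, had 807, 652, 951 and 979 normalized counts with a log2 ratio of 0.59, and miR-223, of the myeloid lineage, had 252, 235, 351 and 328 with 0.48. So 3 of the 5 white blood cell miRNAs were beyond 2-fold lower, against 7.69% of all miRNAs. These 3 are entries of 1 family, 2 of them the 5p arms of paralogs that may share reads. This list too was chosen with earlier results of these data known, so the share is a description only.

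The red blood cell pair was split as well. miR-144 and miR-451 are cut from 1 transcript in the erythroid lineage, and miR-451 is matured by Argonaute 2 without Dicer. miR-144 had 256, 581, 188 and 180 normalized counts in the blank, vehicle, 5 μg/L and 500 μg/L libraries, a log2 ratio of -1.68 (-1.94 to -1.44). miR-451 had 1660, 1451, 1388 and 2302, a log2 ratio of 0.67 (0.57 to 0.76). To the blank control the log2 ratio of miR-144 was -0.50. The vehicle library alone was high for miR-144, and the 500 μg/L library alone was high for miR-451. The list had a median of -0.51 while its summed level, mostly miR-451, was higher at 500 μg/L, with a log2 ratio of 0.29.

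In the nervous system, miR-219 was the lowest. It promotes the maturation of oligodendrocytes, the cells that make central myelin. Its level was 3408, 7323, 3111 and 2143 normalized counts in the blank, vehicle, 5 μg/L and 500 μg/L libraries, a log2 ratio of -1.77 (-1.84 to -1.70) and, against the blank control, -0.67. The other myelin-related miRNA, miR-338, had 2962, 2847, 2489 and 2444 and a log2 ratio of -0.22. miR-153a, a neuronal miRNA, had 12470, 20540, 11334 and 9531, a log2 ratio of -1.11 (-1.14 to -1.07) and, against the blank control, -0.39. Its paralogs differed from it, with -0.52 for miR-153c and 0.02 for miR-153b, the latter at -0.07 to the blank control. Over the 8 neuronal miRNAs the median was -0.23, from miR-153a to miR-128 at 0.36. Of the 8, 1 was beyond 2-fold, which is near the share of 8.97% over all miRNAs. miR-128, of the forebrain in mouse, had 17579, 24630, 33210 and 31641 normalized counts, so that its 500 μg/L value lay above both controls. miR-124, the general neuronal miRNA, had 1968, 3248, 2340 and 1823 and a log2 ratio of -0.83, or -0.11 to the blank control, with the vehicle library alone high, and miR-9-5p of neural progenitors had -0.09 (0.03 to the blank control).

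Digestive organs also had lower entries. miR-459-5p, which was listed with the liver and gut miRNAs, had the lowest ratio of all 234. Its level was 11933, 18088, 9970 and 4955 normalized counts in the blank, vehicle, 5 μg/L and 500 μg/L libraries, or 0.274 of the vehicle control (log2 ratio -1.87, -1.91 to -1.82). At 500 μg/L it was below every other library by about 2-fold or more, with a log2 ratio of -1.27 to the blank control. The gut miRNAs miR-192, miR-194a and miR-194b had log2 ratios of -0.50, -0.35 and -0.39, and the liver miRNA miR-122 had 0.00, from 4434 normalized counts to 4443, and -0.31 to the blank control. All 6 members of the list but miR-122 were below 0, with a median of -0.45 against 0.02 over all miRNAs. In the exocrine pancreas, miR-216a had 1474, 2231, 1264 and 1008 normalized counts, a log2 ratio of -1.15 (-1.26 to -1.04) and, against the blank control, -0.55. Its neighbours miR-216b and miR-217 had -0.22 and -0.27.

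Within the miR-130, miR-301 and miR-454 family, whose members share a seed, the miR-301 branch was low and the rest was not. miR-301b had 1162, 2108, 822 and 635 normalized counts in the blank, vehicle, 5 μg/L and 500 μg/L libraries, a log2 ratio of -1.73 (-1.86 to -1.60). miR-301c had 13296, 20067, 10353 and 8211, a log2 ratio of -1.29 (-1.33 to -1.25), and miR-301a had 20216, 25721, 16930 and 13683 and -0.91. All 3 miR-301 entries were lowest at 500 μg/L, with log2 ratios to the blank control of -0.87, -0.70 (-0.695 unrounded) and -0.56 in the same order. The other 5 members ran from -0.09 for miR-454a, which was at 0.11 to the blank control, to 0.46 for miR-130b. The family's most abundant member, miR-454b, had 0.10, and the median of the 8 was 0.00 while the log2 ratio of their summed levels was -0.13.

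miR-190a had 344, 787, 354 and 254 normalized counts in the blank, vehicle, 5 μg/L and 500 μg/L libraries, a log2 ratio of -1.63 (-1.84 to -1.42) and, against the blank control, -0.44 (-0.435 unrounded). Its paralog miR-190b had 9411, 16005, 8956 and 8469 and a log2 ratio of -0.92, or -0.15 to the blank control. For miR-101b the values were 1443, 2085, 1030 and 1056, with a log2 ratio of -0.98, and for miR-101a the log2 ratio was -0.50. All 4 entries were therefore below 0, with a median of -0.95, the lowest of the 14 family lists. miR-101 and miR-190 are separate by number and were listed together with earlier results of these data known, so this rank is a description only. The miR-142 entries, placed in a tissue list, lay lower, from -1.83 to -1.18. In the blank control the 4 miR-101 and miR-190 entries had a median log2 ratio to the vehicle control of -0.65. At 500 μg/L their median to the blank control was -0.39. The miR-34 family, whose b and c members are known from cells with motile cilia in mouse and frog, had miR-34b at 117, 206, 132 and 101 normalized counts, a log2 ratio of -1.02 (-1.39 to -0.67) and, against the blank control, -0.20. With 10 in place of 1 added to the values, its log2 ratio was -0.96 (-0.957 unrounded), within 2-fold. miR-34a had -0.57 and miR-34c had -0.17.

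The abundant miR-30e-5p had 76063, 114119, 59753 and 44923 normalized counts in the blank, vehicle, 5 μg/L and 500 μg/L libraries. Its log2 ratio of -1.34 (-1.36 to -1.33) set it apart from the other 5 entries of the miR-30 family, which lay between 0.05 and 0.28. To the blank control miR-30e-5p was at -0.76. It was the most abundant of the miRNAs beyond 2-fold, with rank 13 in the vehicle library, and the summed level of the family had a log2 ratio of -0.30 while the median of its entries was 0.10 (-0.04 to the blank control). From the clusters related to miR-17, which are known for cell growth, miR-18b-5p had 202, 300, 150 and 116 (log2 ratio -1.36, or -0.79 to the blank control) and miR-19a-5p had 248, 417, 272 and 193 (-1.11, or -0.36 to the blank control). The last 3 lower entries were thinly counted or stood in no list. Of these, miR-133b-5p and miR-2185-3p were within 2-fold when 10 was added to the values, at -0.86 and -0.60 (-0.595 unrounded). miR-133b-5p, the minor arm of a muscle miRNA, had 22.5, 31.2, 43.0 and 12.7 normalized counts, with 34 reads in the vehicle library and 12 at 500 μg/L (log2 ratio -1.23, -2.38 to -0.31, and -0.78 to the blank control). miR-2185-3p had 10.7, 14.7, 10.7 and 6.33 normalized counts, and its interval of -2.85 to 0.22, from 16 and 6 reads, reached 0 (-0.68 to the blank control). miR-1788-3p had 961, 1165, 743 and 551 normalized counts, a log2 ratio of -1.08 and, against the blank control, -0.80.

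**Figure D2:**
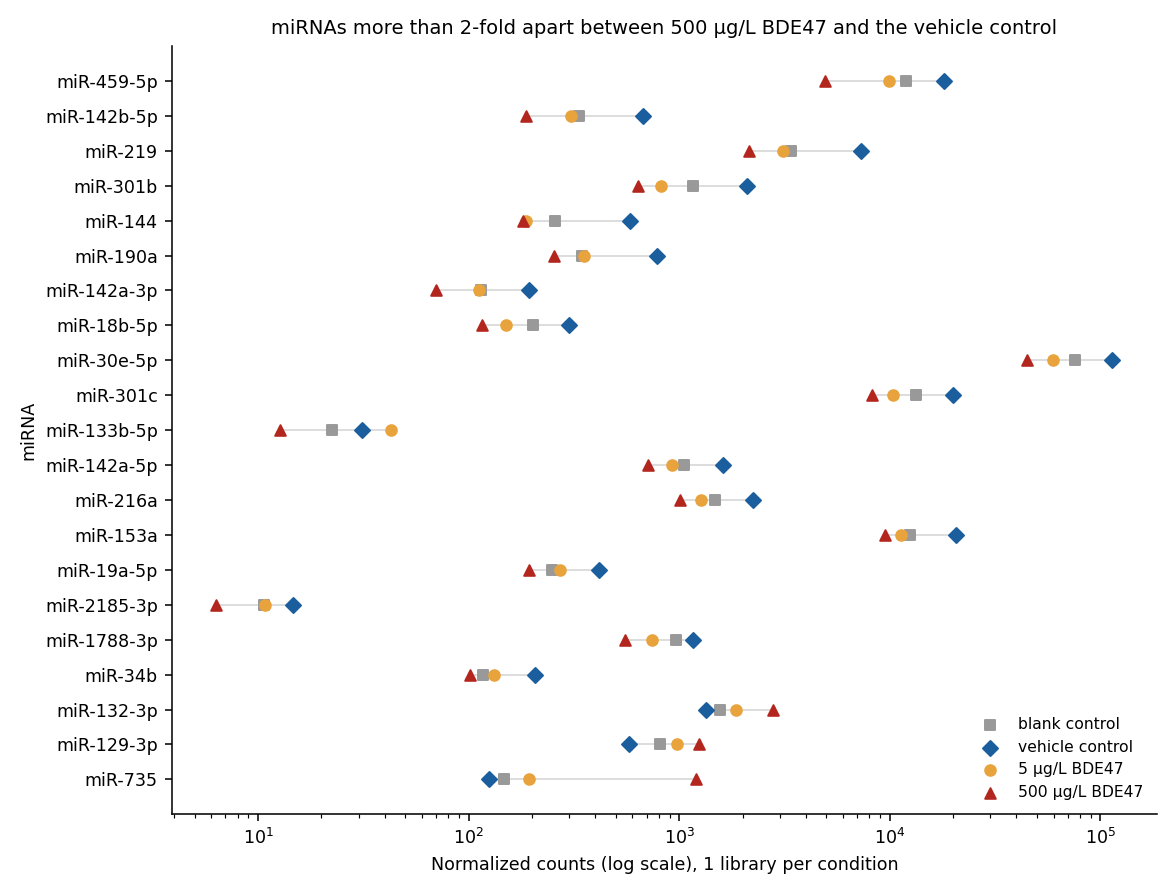
Normalized counts (log axis) of the 21 miRNAs beyond 2-fold in each of the 4 libraries, 1 symbol per library, ordered by log2 ratio. The 500 μg/L library is the lowest for all 18 lower miRNAs and the highest for the 3 higher ones, and the vehicle library is the highest for 17 of the 18.

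Across these 18 lower miRNAs the 500 μg/L library was the lowest of the 4 every time, and the vehicle library was the highest for 17, miR-133b-5p being the exception. They were chosen by the ratio of these 2 libraries, so this order is a description only. Their median log2 ratio was -1.32 to the vehicle control and -0.69 to the blank control. The ratio to the blank control is a description too, because the 500 μg/L value that chose these miRNAs enters both ratios. Over all 234 miRNAs the 500 μg/L library was the lowest of the 4 for 76, so a low value there was not particular to the 18. Against the blank control, miR-459-5p alone of the 18 passed 2-fold.

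The 3 miRNAs on the higher side were led by miR-735. It had 148, 125, 194 and 1202 normalized counts in the blank, vehicle, 5 μg/L and 500 μg/L libraries, or 9.65 times the vehicle control (log2 ratio 3.26, 3.01 to 3.54). The 500 μg/L library stood far above the rest, among which the 5 μg/L library was the highest. Its log2 ratio to the blank control was 3.01. The RefSeq annotation carries miR-735 under the symbol rny2, the symbol of a Y RNA, a class of short RNAs bound by the Ro protein.

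The neuronal activity miRNAs were the highest list. In mammalian neurons miR-132 and miR-212 are transcribed together after activity, and miR-129 is a neuronal miRNA with 2 used arms. miR-132-3p had 1556, 1347, 1865 and 2799 normalized counts in the blank, vehicle, 5 μg/L and 500 μg/L libraries, a log2 ratio of 1.06 (0.96 to 1.15; 1.055 unrounded). miR-129-3p had 809, 576, 982 and 1248, a log2 ratio of 1.11 (0.97 to 1.26). For both, the 5 μg/L library lay between the controls and the 500 μg/L library. The other arm miR-129-5p had 3647, 3742, 3944 and 5677 and a log2 ratio of 0.60, and miR-212 had 2212, 2088, 2177 and 2887 and 0.47. Of the 5 entries, 2 were beyond 2-fold higher, against 1.28% of all miRNAs, and the median was 0.60. The list was chosen with earlier results of these data known, so this share is a description only. When libraries were scaled to all listed reads, miR-132-3p was at 0.98 and no longer beyond 2-fold. miR-132-5p, the minor arm, had 84.7, 135, 78.1 and 101 normalized counts, with a log2 ratio of -0.41 and, against the blank control, 0.26. Against the blank control the list had a median of 0.63 (0.625 unrounded), with miR-132-3p at 0.85 and miR-129-3p at 0.63.

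The other tissue lists held almost no entry beyond 2-fold. With 8.97% of all miRNAs beyond 2-fold, few would be found in lists this short. Epithelial miRNAs of the miR-200 group, which keep epithelial cells from becoming mesenchymal, were all above 0, between 0.04 for miR-200a and 0.40 for miR-200c, with a median of 0.20, although miR-200a was at -0.04 when libraries were scaled to all listed reads. The eye miRNAs miR-204 and miR-184 had log2 ratios of 0.55 and 0.19. miR-204, of the pigmented epithelium and lens, had 56241, 51054, 62699 and 74720 normalized counts in the blank, vehicle, 5 μg/L and 500 μg/L libraries, so its 500 μg/L value was the highest. In the sensory cell cluster, which serves hair cells and photoreceptors, miR-182-5p had 0.29, miR-183 had 0.05 (-0.02 with scaling to all listed reads) and miR-96 had -0.35.

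In connective tissue, miR-214 had 15126, 9313, 13728 and 16850 normalized counts in the blank, vehicle, 5 μg/L and 500 μg/L libraries, a log2 ratio of 0.86 (0.855 unrounded). The smooth muscle miRNA miR-145 had 4321, 2362, 3799 and 4614, a log2 ratio of 0.97, while miR-143 of the same tissue had -0.02. Both miR-214 and miR-145 were low in the vehicle library alone, and their log2 ratios to the blank control were 0.16 and 0.10. The cartilage miRNA miR-140 was at 0.34 for its 3p arm and -0.32 for its 5p arm. Striated muscle had a median of 0.03 over 8 entries (-0.05 with scaling to all listed reads), from miR-133b-5p to miR-206 at 0.59, and its most abundant entry, miR-133a-3p, had 0.20.

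For part of the inflammation and vessel miRNAs the sign depended on the control. miR-146a, which dampens innate immune signalling, had 7689, 13344, 4854 and 12267 normalized counts in the blank, vehicle, 5 μg/L and 500 μg/L libraries. The vehicle and 500 μg/L libraries were alike and high, with a log2 ratio of -0.12, and the ratio to the blank control was 0.67. miR-155, of activated immune cells, had 135, 134, 98.7 and 83.4, with a log2 ratio of -0.68 and, against the blank control, -0.69. The 3 inflammation entries had a median of -0.18 to the vehicle library and 0.61 to the blank one. Blood vessel miRNAs had medians of -0.14 and 0.08 in the same order, with miR-126a-3p of endothelium at 0.32 and miR-126b-5p at -0.52 (0.04 to the blank control). Endocrine entries ran from miR-7a at -0.80 to the islet miRNA miR-375 at 0.05, and those of skin from miR-203a at -0.34 (0.12 to the blank control) to miR-203b-3p at 0.30.

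**Figure D3:**
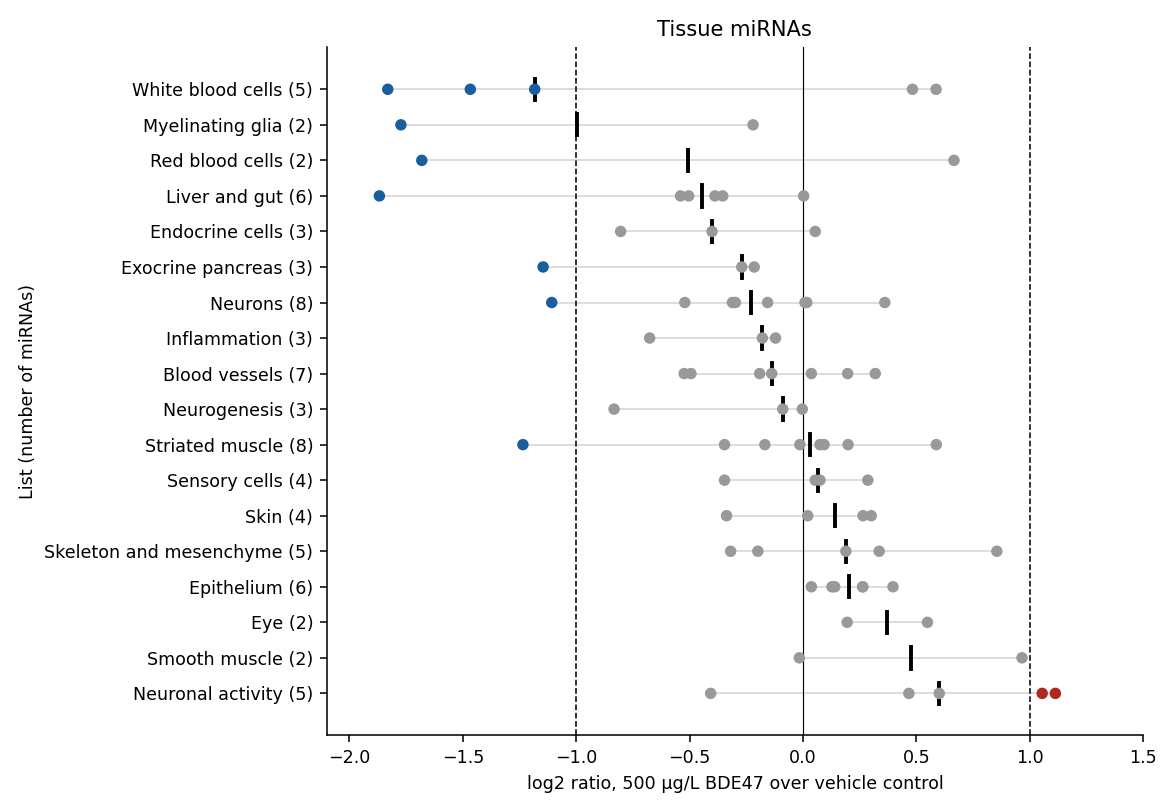
Log2 ratio of 500 μg/L BDE47 to the vehicle control for every miRNA of 18 tissue lists (grey within 2-fold, blue lower, red higher; black bar, median of the list; number of miRNAs in brackets). The medians run from -1.18 for white blood cells to 0.60 for neuronal activity, and entries of one list often lie on both sides of 0.

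Among the families, let-7 leaned to lower values. It is a large family that restrains stem cell and growth genes as animals mature. Of its 10 entries 8 were below 0, with a median of -0.36, from let-7j at -0.98 to let-7b at 0.13. let-7j had 608, 993, 699 and 503 normalized counts in the blank, vehicle, 5 μg/L and 500 μg/L libraries, and let-7g, the most abundant, had 7118, 7090, 8023 and 7502. Against the blank control the median was -0.03. The miR-10 and miR-196 miRNAs, which lie in the Hox clusters, were described apart. miR-196a, miR-196b, miR-196c and miR-196d had log2 ratios of -0.63, -0.59, -0.96 (-0.955 unrounded) and -0.94 to the vehicle control, and of -0.04, -0.11, -0.15 and -0.25 to the blank control. miR-196a, the most abundant of them, had 1722, 2594, 2075 and 1680 normalized counts, with the vehicle library highest. The miR-10 entries ran from -0.49 for the minor arm miR-10d-3p to 0.27 for miR-10b. The summed level of that list, nearly all of it miR-10, had a log2 ratio of 0.18 although the median was -0.22. The hypoxia list, with miR-210, miR-462 and miR-731, ran from miR-731 at -0.42 to miR-210-5p at 0.26.

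The miR-99, miR-100 and miR-125 entries had log2 ratios of 0.08 to 0.27 in all 5 cases, while the lists that follow had entries on both sides of 0. Of the clustered miR-23, miR-24 and miR-27, 7 of 9 entries were above 0, from miR-24 at -0.14 to miR-27c-5p at 0.43. With scaling to all listed reads miR-27b was at -0.02. miR-181a-5p, the most abundant miRNA of the 500 μg/L library, had 0.40, and its minor arm miR-181a-3p had -0.12. Entries of the miR-15, miR-16 and miR-457 family ran from miR-15a-3p at -0.62 to miR-16b at 0.41, those of miR-26 and miR-29 from miR-29b at -0.47 to miR-29a at 0.37, and those of the relatives of miR-17 from miR-18b-5p to miR-20b at 0.40. In the miR-19, miR-25, miR-92 and miR-363 list, miR-19d had the highest ratio at 0.69, but -0.02 to the blank control, and miR-19a-5p the lowest, while the abundant miR-92a had 0.17. The miR-430 family, which clears maternal mRNAs in the early embryo, was low at this age. Its most abundant entry, miR-430a, had 293 normalized counts in the vehicle library and 267 at 500 μg/L, and 3 of its 4 listed entries passed the filter on low values.

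**Figure D4:**
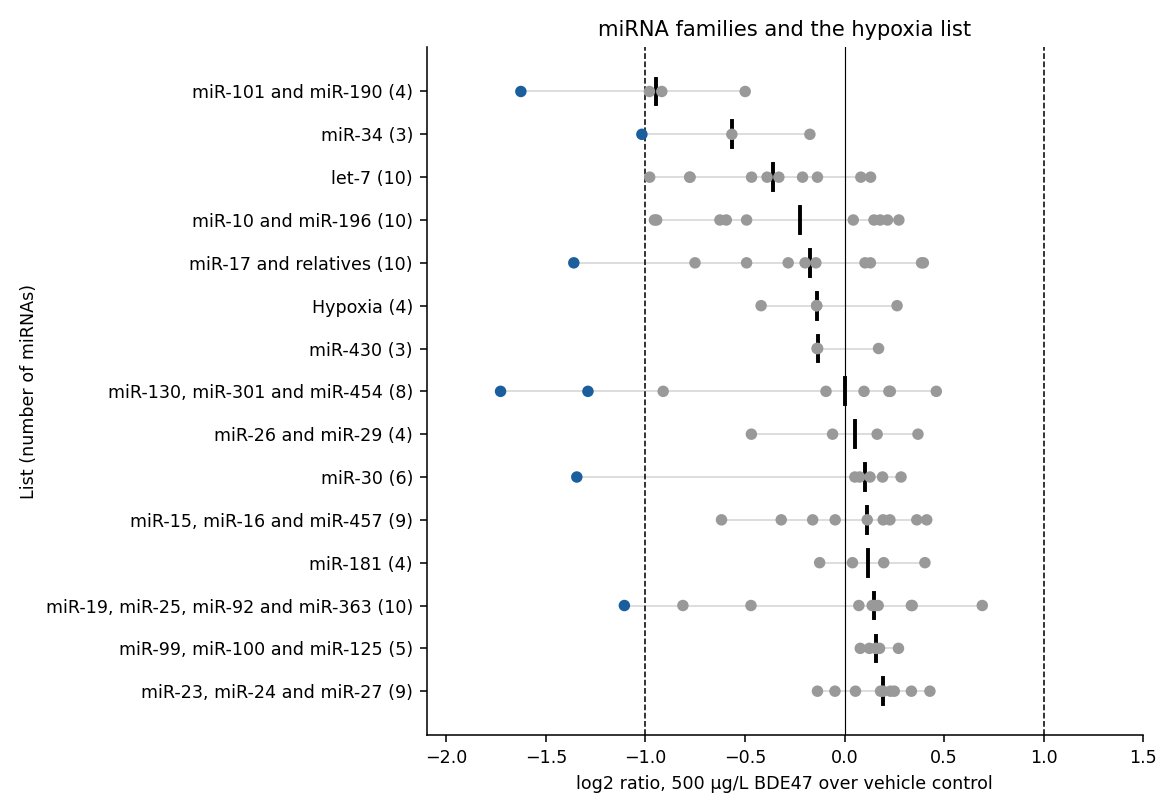
Log2 ratio of 500 μg/L BDE47 to the vehicle control for every miRNA of the family lists and the hypoxia list that passed the filter (grey within 2-fold, blue lower; black bar, median; number of miRNAs in brackets). Single members stand away from their family, such as miR-30e-5p at -1.34 among entries between 0.05 and 0.28, while miR-99, miR-100 and miR-125 lie within a narrow range.

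Families by number include paralogs and also the 2 arms of 1 hairpin. Of the 58 families with 2 or more entries, 10 spanned more than 1 on the log2 scale, and the median span was 0.48. In miR-18, miR-132, miR-2185, miR-1788 and miR-459, which are among the 10, the lowest and highest entries were arms of 1 hairpin and not paralogs. A call seldom extended to the whole family. Of 15 families with 2 or more entries and at least 1 beyond 2-fold, 1 had every entry beyond 2-fold, namely miR-142. With 8.97% of all miRNAs beyond 2-fold, few such families would be found whatever the grouping, so this count says little about families. Reads of near-identical paralogs may be divided between entries by the mapping, so the split between paralogs is less certain than the family's sum.

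The arms of 1 hairpin gave a comparison within each library. Both arms passed the filter for 32 hairpins, and the log2 ratios of the 2 arms had the same sign in 15 of them. With 113 of all log2 ratios below 0 and 121 above, unrelated pairs would match in sign about as often. The median difference between arms was 0.44, and 7 hairpins differed by more than 1. For miR-30e the 5p arm was at -1.34 and the 3p arm, with 19507, 18379, 19934 and 19380 normalized counts in the blank, vehicle, 5 μg/L and 500 μg/L libraries, was at 0.08. The log2 ratio of the 5p arm to the 3p arm was thus 1.96, 2.63, 1.58 and 1.21 in these libraries. For miR-459 it was 2.38, 2.71, 1.62 and 1.38 in the same order, with the 3p arm at -0.54. In both hairpins the balance of arms was highest in the vehicle library and lowest at 500 μg/L. The miR-132 arms lay on opposite sides of 0, with the 3p arm at 1.06 and the 5p arm at -0.41. Against the blank control they were at 0.85 and 0.26. The interval of the 5p arm to the blank control, -0.19 to 0.71, held 0. In miR-18b, miR-2185, miR-1788 and miR-133b, where the arms also differed by more than 1, the lesser arm had few reads. Both arms of miR-142a and of miR-19a were lower, and both arms of miR-129 were higher.

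**Figure D5:**
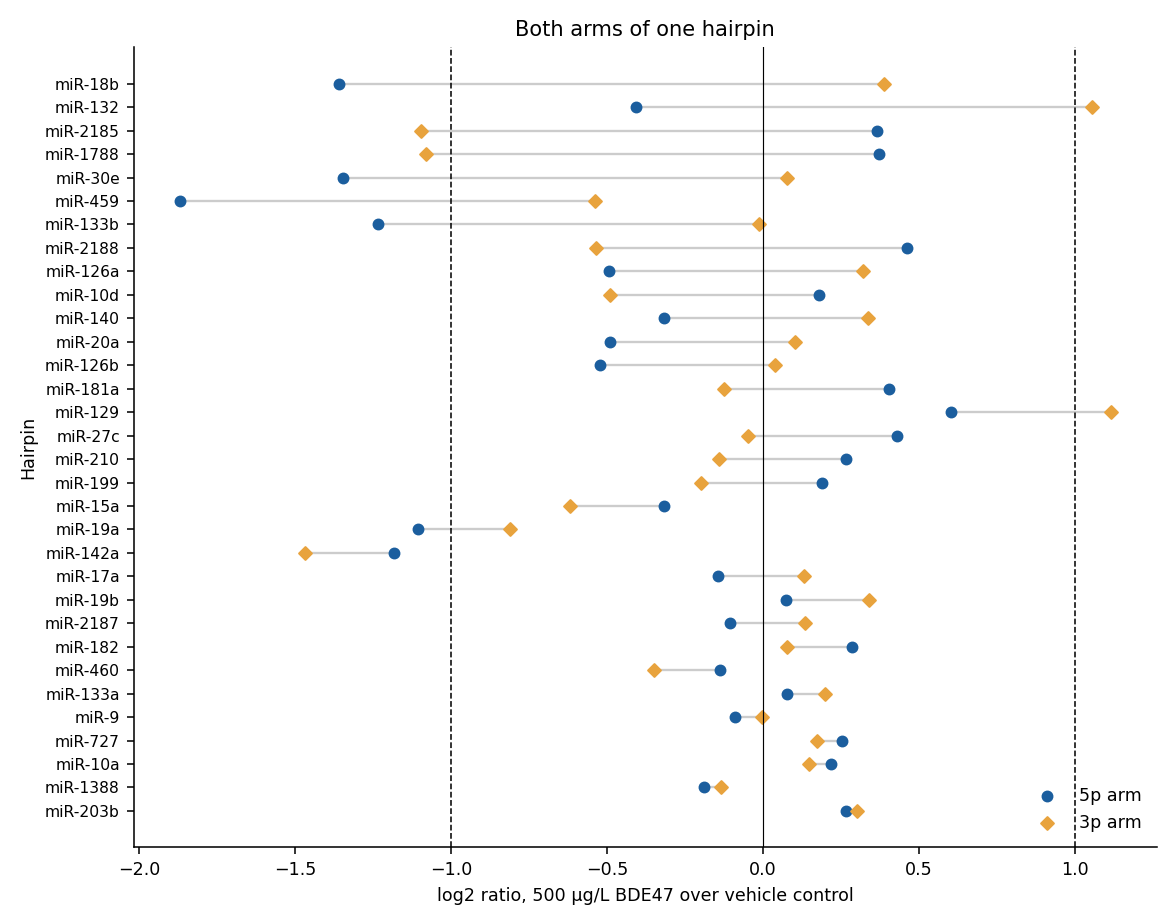
Log2 ratio of 500 μg/L BDE47 to the vehicle control for the 5p arm (circle) and 3p arm (diamond) of the 32 hairpins with both arms measured, ordered by the distance between arms. miR-142a and miR-129 have both arms on one side of 0, whereas miR-30e-5p lies at -1.34 and miR-30e-3p at 0.08.

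miRNA genes that lie near each other can be cut from 1 transcript. In the RefSeq annotation of the GRCz12tu assembly, used only for names and neighbours, 198 of 202 miRNA names without arm matched a gene, and 91 pairs of different miRNAs had genes within 10 kb. The more abundant arms of the 2 miRNAs had the same sign in 46 of the 91 pairs, with a median difference of 0.36. Over all miRNAs 113 log2 ratios were below 0 and 121 above, so unrelated pairs would match in sign about as often. Many pairs also share a miRNA, and some names, such as let-7a, match several genes. Among 11 pairs with a miRNA beyond 2-fold, none had both beyond it. With 8.97% of all miRNAs beyond 2-fold, few such pairs would be found whatever the neighbourhood, so this count says little about neighbours. The widest pair was miR-144 and miR-451, which differed by 2.35. miR-301b differed by 1.96 from miR-130c and by 1.83 from miR-454b, and miR-30e-5p by 1.63 from miR-30c. The name miR-130c matched 2 genes, so its reads need not all come from the gene near miR-301b. In contrast, miR-192 and miR-194a differed by 0.15 and miR-216b and miR-217 by 0.06 (0.055 unrounded). miR-216a of that last cluster differed from miR-217 by 0.88.

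The most abundant miRNAs all lay within 2-fold. The 10 most abundant of the vehicle library had log2 ratios between -0.50 and 0.40, and 9 of them were also among the 10 most abundant at 500 μg/L. Since 8.97% of all miRNAs were beyond 2-fold, none among 10 is near the background share. miR-192 led the vehicle library with 18.1% of the listed reads and held 12.1% at 500 μg/L, and miR-181a-5p went from 15.2% to 19.1%. Their order was therefore exchanged. miR-182-5p came next in both, with 8.88% and 10.3%. The miRNAs that followed were miR-10b at 0.27, miR-10c at 0.04, miR-10d-5p at 0.18, miR-10a-5p at 0.22, miR-183 at 0.05, miR-143 at -0.02 and miR-26b at -0.06. miR-21, known for induction in injury and regeneration, had 93197, 86059, 69026 and 136432 normalized counts in the blank, vehicle, 5 μg/L and 500 μg/L libraries, a log2 ratio of 0.66.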

How the data were processed

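Small RNA of pooled whole larvae was sequenced, 1 library per condition. The authors removed low-quality, adaptor and wrongly sized reads and assigned the rest to miRBase zebrafish miRNAs. The deposited table holds a signal, which is the number of reads over a size factor of each library. All values (100%) were whole multiples of a number particular to the library, within 0.001 of a read, so reads were read back from them. Such a scaling usually takes most miRNAs to be alike between libraries. How the size factors were set is not given in the study's methods. How reads matching several miRNAs were counted is not given in the sources used here.

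Log2 ratios were computed after adding 1, which understates changes of low miRNAs, for miRNAs with a mean of at least 10. A miRNA was counted when it exceeded 2-fold. The 11 miRNAs below the filter held 35 reads in the vehicle library and 20 at 500 μg/L, and none of them differed beyond counting error. Among them miR-2186 and miR-2196 were beyond 2-fold lower, at -2.48 and -1.50. They had 5 and 2 reads in the vehicle library and no reads at 500 μg/L. With 1 library a side, no test between conditions was run. The lists of miRNAs, by the numbers in their names, and the rule for naming were chosen with earlier results of these data known. The rule names the miRNAs beyond 2-fold and their other arms, the lowest, highest and most abundant member of each list, the 10 most abundant miRNAs, and those the study names. A further 16 were chosen after their values were seen (miR-21, miR-101b, miR-190b, miR-153b, miR-212, miR-217, miR-223, miR-194a, miR-194b, miR-196a, miR-196b, miR-196d, miR-301a, miR-130c, miR-454a and miR-10d-3p). Mature sequences were not used here, so the planned description of seeds and base composition was left out. The calculations were tested on simulated data. Versions were matplotlib 3.10.9, scipy 1.17.1, pandas 2.3.3, numpy 2.4.6 and Python 3.11.15.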

Additional observations from a re-analysis of the deposited data

Results flagged for a closer look

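miR-133b-5p lay on opposite sides of the vehicle control at the low and the high BDE47 concentration, with a log2 ratio of 0.45 at 5 μg/L and -1.23 (-1.235 unrounded) at 500 μg/L. These rest on 34 vehicle reads, 44 reads at 5 μg/L and 12 reads at 500 μg/L, and the difference between the concentrations was not tested.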

How the results depend on the processing

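The count of miRNAs beyond 2-fold at 500 μg/L, 21 against the vehicle control, was 2 against the blank control (miR-735 and miR-459-5p), 12 against the mean of both controls and 49 at a fold threshold of 1.5. Applied to the reads of each miRNA, Fisher's exact test (two-sided, Benjamini-Hochberg adjusted) put 185 under 0.05, which compares 2 libraries and not conditions. Pseudocounts of 0.1 and 10, no filter, a mean of at least 100 and 3 other scalings gave between 18 and 24, and scaling to all listed reads moved the median of all miRNAs by -0.08. Scaling to all listed reads took miR-132-3p to 0.98. No miRNA beyond 2-fold changed sign under any of these. Of all 118 miRNAs named, 19 changed sign with another control and 8 under the other settings, and of the 33 list medians 7 and 5. The cause of the drop against the blank control was not tested. No paired analysis was possible because each condition had 1 library. For the same reason no replicate could be left out. Depth limits miR-133b-5p and miR-2185-3p, with 12 and 6 reads at 500 μg/L.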
